A study of Mus musculus with 24 samples.

Results

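The genes described here encode the subunits of the proteasome, the protease that destroys ubiquitin-tagged proteins, in quadriceps muscle of mice on a high fat or a low fat diet. All probe sets annotated to 1 gene symbol of the form Psma, Psmb, Psmc, Psmd, Psme or Psmf with a number were taken, except Psmb8 and Psmb9. This gave 38 probe sets of 38 genes, out of 16361 probe sets in the table and 14754 genes with a symbol of their own. Psma3, Psma4, Psma5 and Psmb3 are not analysed here. Of these 38 genes, 35 passed the filter on dim genes and were tested. After 3 days, 9 of the 35 were lower on high fat and none was higher, against 6.87% and 7.99% of all genes tested. Of those 9, 8 belong to the regulatory particle that caps the core, and the remaining one, Psme4, is an activator. The smallest of these changes was in Psmd14, which fell by 11.5%, and the largest in Psme4, which fell by 27.0%. None of the 11 tested core subunits was called at day 3, though Psma1 and Psma2 were in a fit with array weights. No subunit was called at day 28, where 7.18% of all genes tested were called lower and 5.35% higher.

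The proteasome has a barrel-shaped core with its proteolytic sites on the inside. Its rings of beta subunits are stacked between rings of alpha subunits, which close the ends. A regulatory particle caps the core. The base of that particle holds a ring of ATPases that unfold substrates, and its lid holds the enzyme that removes ubiquitin before the substrate is threaded into the core. In skeletal muscle this pathway carries much of the breakdown of contractile proteins, and transcripts of its subunits and of the ubiquitin ligase Fbxo32 are known to rise in fasting and other kinds of atrophy.

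Male mice of the strain C57BL/6J, which the sample labels write as C56BL/6J, were fed diets based on palm oil, in which fat gave 10% of the energy (low fat) or 45% (high fat). All had first eaten the low fat diet during a run-in and were then assigned at random, per the labels, to 3 or 28 days. Each of the 4 groups held 6 mice with 1 array each. The low fat day 3 and high fat day 3 mice were 12 weeks old and the low fat day 28 and high fat day 28 mice 16 weeks old. Age and feeding time therefore cannot be told apart. Low fat mice had numbers 2010 to 2025 and high fat mice 1751 to 1772, so diet and set of animals cannot be told apart either.

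The intensities are GCRMA values, given here as log2, and a gene was called at a Benjamini-Hochberg adjusted p under 0.05 in a limma fit over all 5793 genes tested. The 5 skeletal muscle markers (Ckm, Acta1, Myh4, Mylpf, Tnnt3) had a mean log2 level of 13.78 to 13.88 on every array, and none was called at either day. They lie near the top of the scale (Acta1 at 14.20 to 14.32), so their even level says little about a change. Markers of other cells and fibres moved with the diet. All 8 slow fibre markers were called higher on high fat at both days, and their mean per array ran from 3.69 to 7.22 on low fat and from 8.17 to 10.93 on high fat at day 3. Of 7 tested adipocyte markers 3 were lower and 1 higher at day 3, and 6 were lower at day 28. Of 8 macrophage markers 1 was lower at day 3 and 8 at day 28. At day 3, 5 of 6 endothelial and 5 of 7 fibroblast and tendon markers were higher, against none of 6 and 2 of 7 at day 28. In whole muscle, fewer cells of a type and less RNA per cell cannot be told apart. High fat day 3 replicate 5 stood apart, with a level of 8.36 for Ptprc, the leukocyte surface antigen, against 4.61 to 5.42 on the other 5 arrays of its group. It also had the highest adipocyte marker mean of that group, 8.88 against 5.98 to 7.21.

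At day 3, 9 of 35 subunits were called lower on high fat and none higher, where 6.87% of all genes tested were called lower and 7.99% higher (14.9% in either direction). The median log2 change was -0.113 over the 35 subunits and -0.00514 over all genes tested, and 28 of the 35 changes were below 0. The count was 8 without high fat day 3 replicate 5. By structure, 4 of 9 base subunits, 4 of 8 lid subunits, 1 of 4 tested activators, none of 4 alpha subunits, none of 7 beta subunits and none of 3 base assembly chaperones were lower. The median change was -0.176 for base and lid, of which 16 of 17 changes were below 0, and -0.076 for the core, of which 9 of 11 were below 0. No test of the difference between these parts was made. For 7 of the 35 subunits every high fat mouse was below every low fat mouse, against 2.59% of all genes tested, and for none was every high fat mouse above (3.5% of all genes).

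Psmd2 (Entrez gene 21762), the large scaffold subunit of the base also called Rpn1, had log2 levels with a lowest, median and highest value of 9.82, 9.98 and 10.13 on low fat and 9.53, 9.60 and 9.78 on high fat at day 3. The groups did not overlap. The change was -0.37 ± 0.07 (SE, limma adjusted p = 0.00119), so the transcript fell by 22.4%. Psmd1 (Entrez gene 70247), the other large scaffold of the base, ran from 9.94 through a median of 10.04 to 10.20 on low fat and from 9.53 through 9.79 to 9.88 on high fat. All 6 high fat mice again lay below all 6 low fat mice, with a change of -0.30 ± 0.07 (SE, limma adjusted p = 0.00489). Psmc2 (Entrez gene 19181) is an ATPase of the ring that unfolds substrates. Its values ran from 10.44 through 10.55 to 10.68 on low fat and from 10.21 through 10.30 to 10.36 on high fat. These groups did not overlap, and the change was -0.25 ± 0.05 (SE, limma adjusted p = 0.00155).

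Psmd4, the base subunit known as Rpn10 that binds ubiquitin chains, had a smaller fall. It ran from 9.78 through 9.80 to 9.91 on low fat and from 9.49 through 9.64 to 9.78 on high fat at day 3. The highest high fat mouse, replicate 2, came just under the lowest low fat mouse. The change was -0.19 ± 0.06 (SE, limma adjusted p = 0.0362). This call was lost, at adjusted p of 0.0519 to 0.0798, without any 1 of 6 arrays, namely low fat day 3 replicates 1, 4 and 6 and high fat day 3 replicates 3, 4 and 5. The other 5 ATPases of the ring were not called. Psmc6 had a change of -0.18 ± 0.07 (limma adjusted p = 0.0964), Psmc4 of -0.11 ± 0.07, Psmc1 of -0.05 ± 0.07, Psmc3 of -0.02 ± 0.05 and Psmc5 of -0.01 ± 0.06 (SE). So within 1 ring of ATPases the measured changes at day 3 ran from -0.25 to -0.01, and whether the ATPases differ from each other was not tested.

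In the lid, Psmd7 (Entrez gene 17463), the partner of the deubiquitinase Psmd14, had the largest fall. It ran from 9.61 through 9.73 to 9.88 on low fat and from 9.15 through 9.34 to 9.64 on high fat at day 3. Only the highest high fat mouse, replicate 2, reached into the low fat range. The change was -0.38 ± 0.09 (SE, limma adjusted p = 0.00547), so it fell by 23.2%. Psmd3 (Entrez gene 22123), a scaffold subunit of the lid, ran from 8.09 through 8.22 to 8.48 on low fat and from 7.73 through 7.86 to 8.02 on high fat, without overlap. Its change was -0.37 ± 0.08 (SE, limma adjusted p = 0.00197). Psmd11 (Entrez gene 69077), the lid subunit Rpn6, ran from 10.08 through 10.13 to 10.25 on low fat and from 9.70 through 9.86 to 9.94 on high fat, also without overlap. It changed by -0.29 ± 0.07 (SE, limma adjusted p = 0.00505).

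Psmd14 (Entrez gene 59029) encodes Rpn11, the metalloprotease of the lid that cuts ubiquitin chains off the substrate. It ran from 8.94 through 8.98 to 9.08 on low fat and from 8.69 through 8.81 to 8.95 on high fat at day 3, and the ranges overlapped only through the highest high fat mouse, replicate 2. The change was -0.18 ± 0.05 (SE, limma adjusted p = 0.0222), so it fell by 11.5%. Its call was lost without high fat day 3 replicate 5 (adjusted p = 0.0515). The other 4 lid subunits were not called at day 3. Psmd8 had a change of -0.16 ± 0.10, Psmd6 of -0.11 ± 0.06, Psmd12 of -0.08 ± 0.05 and Psmd13 of 0.04 ± 0.10 (SE).

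Among the activators, which open the core without the regulatory particle or cap its other end, Psme4 (Entrez gene 103554) had the largest change of any subunit in this comparison. This gene encodes PA200, a nuclear cap of the core. It ran from 10.18 through 10.33 to 10.39 on low fat and from 9.48 through 9.86 to 10.10 on high fat at day 3. The groups did not overlap, and high fat replicate 5 was the lowest of all 24 mice. The change was -0.45 ± 0.09 (SE, limma adjusted p = 0.00164), so it fell by 27.0%. Psme3, the nuclear activator known as REG gamma, had a change of -0.26 ± 0.14 and was not called (limma adjusted p = 0.211). Psme1 and Psme2, which form the activator induced by interferon, had changes of 0.13 ± 0.10 and 0.12 ± 0.29 and were not called.

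**Figure D1:**
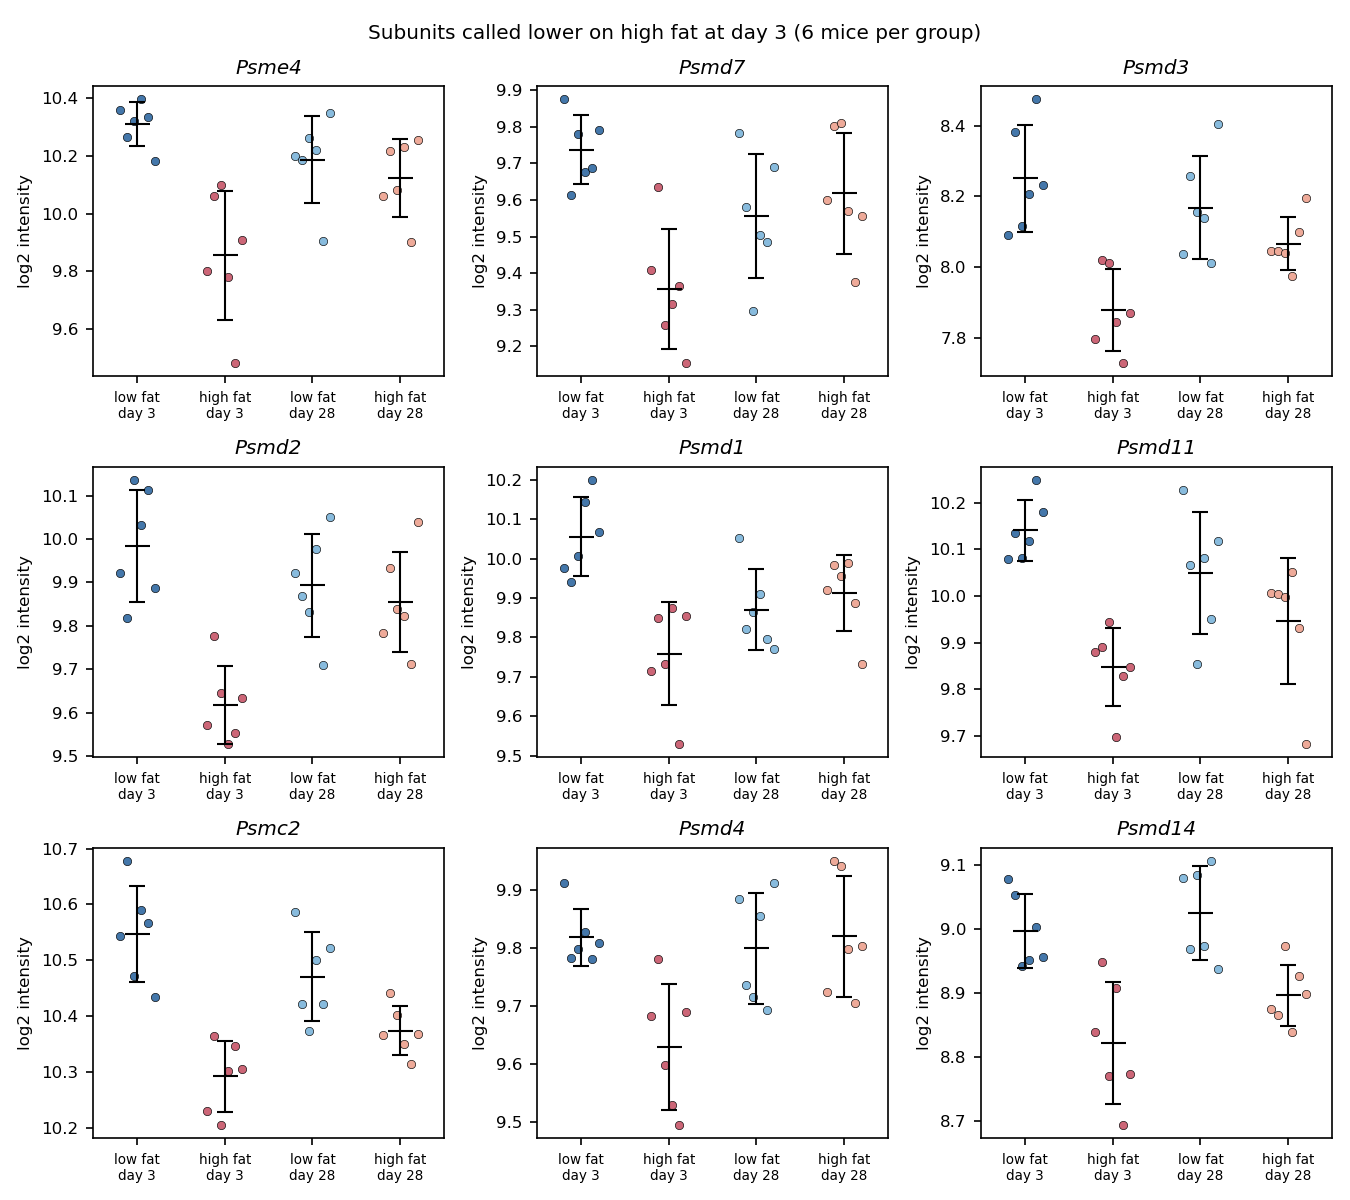
Log2 intensity (vertical axes, each with its own range) of the 9 subunits called lower at day 3, with 1 point per mouse in each of the 4 groups of 6 and the mean ± SD in black. At day 3 the high fat points lie below all low fat points for Psme4, Psmd3, Psmd2, Psmd1, Psmd11, Psmc2 and Psmd4, and the day 28 groups overlap for all 9.

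The core showed smaller changes. The catalytic subunits are Psmb5, Psmb6 and Psmb7, which cut after hydrophobic, acidic and basic residues. Psmb5 ran from 9.38 through 9.51 to 9.63 on low fat and from 9.26 through 9.46 to 9.61 on high fat at day 3, ranges that overlap almost fully. Its change was -0.07 ± 0.06 (SE, limma adjusted p = 0.440), with a confidence interval at the 95% level of -0.20 to 0.05. Psmb6 had a change of 0.00 ± 0.06 (interval -0.13 to 0.13) and Psmb7 of -0.09 ± 0.06 (interval -0.22 to 0.04), also not called. The intervals of Psmb5 and Psmb7 include the changes of -0.18 and -0.19 measured for Psmd14 and Psmd4, and none of the 3 reaches that of -0.37 for Psmd2. Differences between genes were not tested. Psmb1, Psmb2 and Psmb4, beta subunits without a catalytic site of their own, had changes of -0.12, -0.15 and -0.05 and were not called.

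The alpha subunits form the gate of the core. Psma1 ran from 9.41 through 9.57 to 9.73 on low fat and from 9.35 through 9.41 to 9.57 on high fat at day 3. All 6 high fat mice were below the low fat median, though the ranges overlap. The change was -0.15 ± 0.06 (SE, limma adjusted p = 0.0706), and it was called, at adjusted p of 0.0347 and 0.0321, without high fat day 3 replicate 5 and without low fat day 3 replicate 5. Psma2 had the largest change of the alpha subunits, -0.16 ± 0.08 (limma adjusted p = 0.155), Psma6 had -0.07 ± 0.05 and Psma7 had -0.08 ± 0.07, none of them called. In fits with array weights Psma1 (limma adjusted p = 0.0348) and Psma2 (0.0466) were called lower, and with quantile normalization Psma1 was (0.0465), so the absence of core calls depends on these settings.

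Psmd5, Psmd9 and Psmd10 encode chaperones that help to assemble the base and are no part of the finished particle. Their changes at day 3 were 0.04 ± 0.09, -0.12 ± 0.10 and 0.17 ± 0.13 (SE), with signs that differed, and none was called. Psmf1, Psma8 and Psmb11 did not pass the filter and were not tested. Psmf1 encodes PI31, named as an inhibitor of the core. It was dim, with 3.78, 3.83 and 3.87 as its lowest, median and highest value on low fat and 3.61, 3.69 and 3.74 on high fat at day 3. At day 28 these were 3.65, 3.86 and 4.08 on low fat and 3.59, 3.72 and 3.93 on high fat. Psma8, an alpha subunit of the testis, stayed between 1.35 and 1.93 on the 24 arrays, and Psmb11, the beta subunit of the thymus, between 1.20 and 1.76, so neither tissue-restricted subunit rose above the lowest part of the scale.

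**Figure D2:**
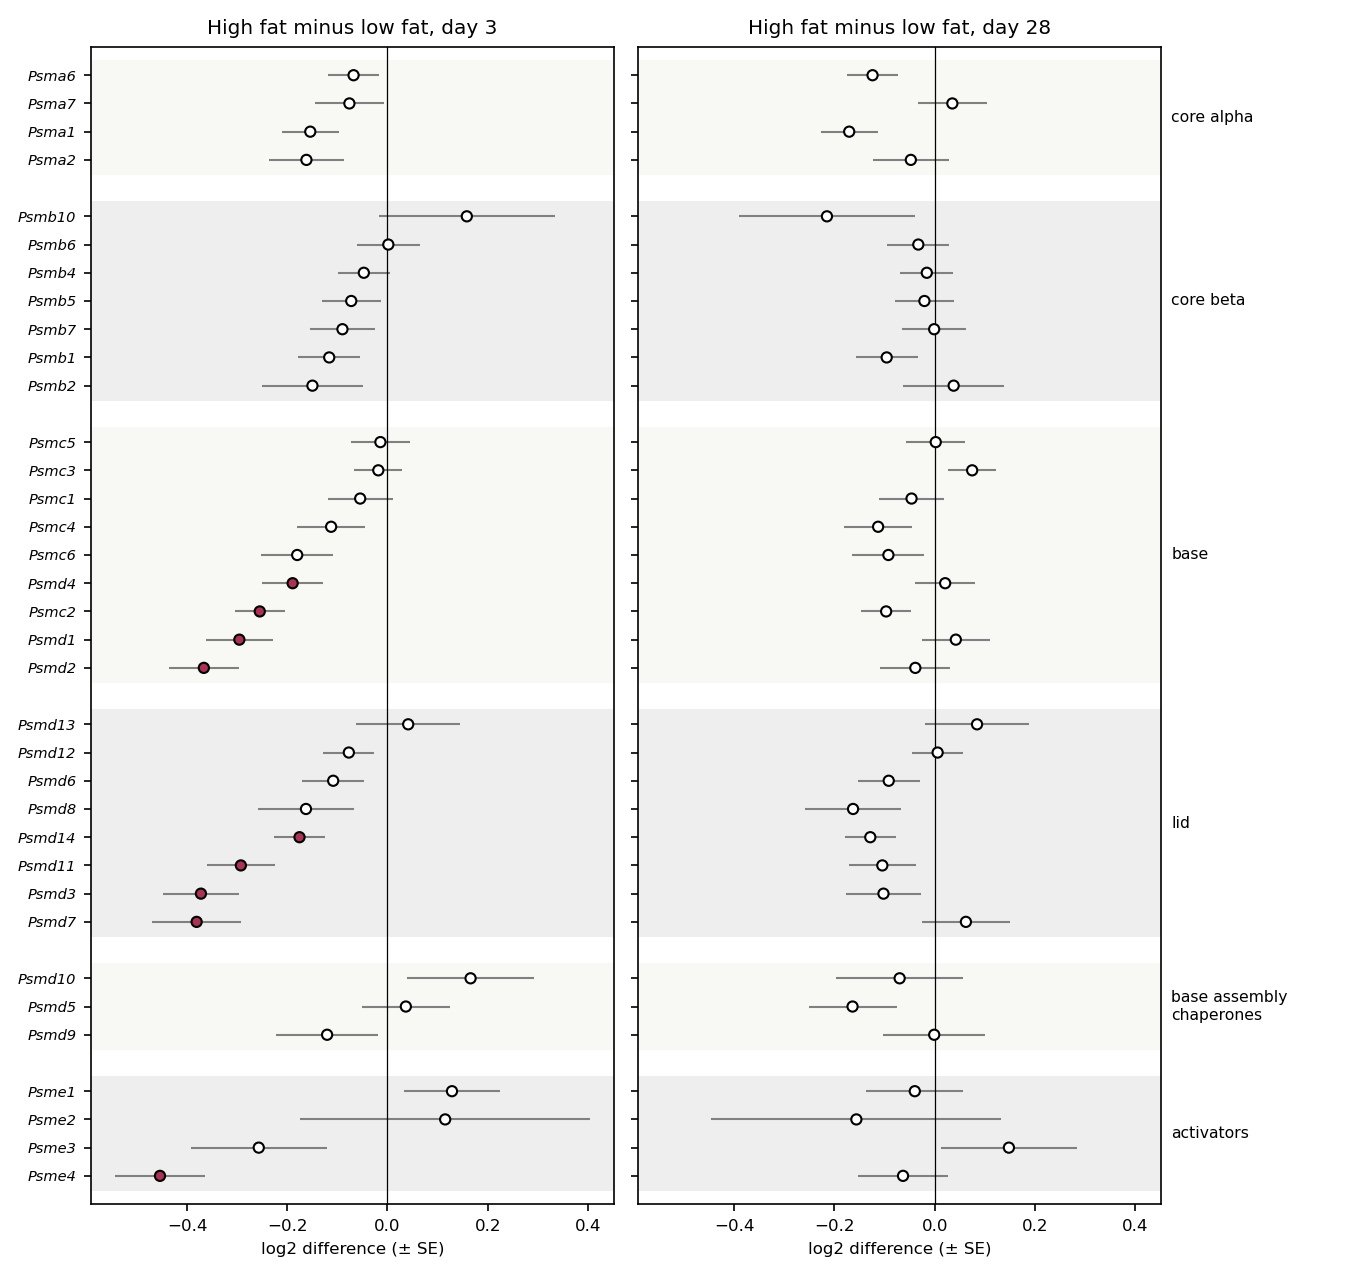
Log2 difference between high fat and low fat (horizontal axes, ± SE from limma) for the 35 tested subunits at day 3 (left) and day 28 (right), ordered by part of the proteasome. Filled points are called at an adjusted p under 0.05, which holds for 9 subunits at day 3 and for none at day 28.

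To show the regulatory DNA next to these changes, the sequence from 150 bases before to 10 after the transcription start is printed for 4 subunits that fell at day 3 (Psmd2, Psmd1, Psmc2 and Psme4) and for the catalytic subunits Psmb5 and Psmb6, which were not called. The sequences are from RefSeq on GRCm38.p6, a build used here for the promoters only, and run 5′ to 3′ on the strand of the gene. Capitals mark matches, on either strand, to the antioxidant response element core TGACNNNGC, which the proteasome regulator NFE2L1 is known to bind, and to the CCAAT box of the factor NF-Y. The regions are chr16:20651502-20651661 (plus strand) for Psmd2, chr1:86064469-86064628 (plus) for Psmd1, chr5:21785125-21785284 (plus) for Psmc2, which has 2 promoters in the table, chr11:30771625-30771784 (plus) for Psme4, chr14:54617986-54618145 (minus) for Psmb5 and chr11:70525207-70525366 (plus) for Psmb6.
Psmd2: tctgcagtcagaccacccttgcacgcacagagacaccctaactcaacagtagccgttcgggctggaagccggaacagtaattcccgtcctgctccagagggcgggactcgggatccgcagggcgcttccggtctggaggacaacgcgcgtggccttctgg
Psmd1: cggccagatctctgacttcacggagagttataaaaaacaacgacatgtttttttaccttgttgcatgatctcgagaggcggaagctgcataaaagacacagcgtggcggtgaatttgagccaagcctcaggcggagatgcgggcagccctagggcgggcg
Psmc2: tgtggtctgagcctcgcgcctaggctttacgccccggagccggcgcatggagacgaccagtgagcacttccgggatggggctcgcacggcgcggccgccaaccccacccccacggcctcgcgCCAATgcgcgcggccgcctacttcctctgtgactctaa
Psme4: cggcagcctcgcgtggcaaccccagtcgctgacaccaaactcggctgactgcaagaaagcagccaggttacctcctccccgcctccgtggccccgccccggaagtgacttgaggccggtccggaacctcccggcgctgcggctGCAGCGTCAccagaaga
Psmb5: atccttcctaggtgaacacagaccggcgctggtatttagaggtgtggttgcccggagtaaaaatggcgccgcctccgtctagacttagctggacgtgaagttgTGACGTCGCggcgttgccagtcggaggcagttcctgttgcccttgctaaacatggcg
Psmb6: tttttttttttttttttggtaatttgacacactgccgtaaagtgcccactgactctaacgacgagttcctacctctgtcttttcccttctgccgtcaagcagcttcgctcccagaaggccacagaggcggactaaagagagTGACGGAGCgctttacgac

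Of the 38 subunit genes, 31 have a promoter of 300 bases (250 before to 50 after the start) in that table. The element TGACNNNGC was found in 6 of the 31 (19.4%), against 14.0% of all 27025 genes in the table. The 6 were Psmb5, Psmb6, Psmc6, Psmd9, Psmd12 and Psme4, of which Psme4 was called at day 3. Its match, TGACGCTGC on the opposite strand, begins 7 bases before the start in the sequence above. The CCAAT box was found in 11 of the 31 (35.5%), against 41.1% of all genes, and in 3 of the 7 called subunits that have a promoter there, Psmc2, Psmd4 and Psmd14. A match is a string of letters and not evidence of binding, and neither motif was found in all of the subunits that fell.

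After 28 days, limma called none of the 35 subunits in either direction, where 7.18% of all genes tested were called lower and 5.35% higher. At an unadjusted p under 0.05 there were 3 of 35, all lower, namely Psma1, Psma6 and Psmd14. Of all 5793 genes tested, 1442 passed that threshold, 733 of them lower, a larger share than among the subunits. The median change of the 35 was -0.046, against 0.010 over all genes tested. Psmd2 ran from 9.71 through 9.90 to 10.05 on low fat and from 9.71 through 9.83 to 10.04 on high fat, ranges that coincide. Its change was -0.04 ± 0.07 (SE), with an interval of -0.18 to 0.11 at the 95% level. Psmd7 had a change of 0.06 ± 0.09, Psme4 of -0.06 ± 0.09, Psmd1 of 0.04 ± 0.07, Psmd4 of 0.02 ± 0.06, Psmd3 of -0.10 ± 0.08, Psmd11 of -0.10 ± 0.07 and Psmc2 of -0.10 ± 0.05 (SE).

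The subunit nearest to a call at day 28 was Psma1, an alpha subunit. It ran from 9.44 through 9.60 to 9.68 on low fat and from 9.32 through 9.42 to 9.49 on high fat. Only the lowest low fat mouse, replicate 3, reached into the high fat range. The change was -0.17 ± 0.06 (SE, limma adjusted p = 0.0507). It was called, at adjusted p of 0.024 to 0.045, without any 1 of 5 arrays, namely low fat day 28 replicate 3, high fat day 28 replicate 5, low fat day 3 replicates 2 and 5 and high fat day 3 replicate 5. Groups did not overlap, with high fat lower, for 2 of 35 subunits (Psma6 and Psmd8), against 4.56% of all genes, and with high fat higher for none, against 3.49%. Psma6 ran from 10.54 through 10.62 to 10.74 on low fat and from 10.43 through 10.51 to 10.54 on high fat, just apart, with a change of -0.12 ± 0.05 (SE, limma adjusted p = 0.128). Psmd8, a lid subunit, ran from 10.96 through 11.05 to 11.18 and from 10.84 through 10.91 to 10.96, with a change of -0.16 ± 0.10 (SE, limma adjusted p = 0.308). Psmd14 had -0.13 ± 0.05 (limma adjusted p = 0.105), close to its change of -0.18 at day 3.

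Among the other parts, the member of the largest change in size at day 28 was Psmb10 in the beta subunits (-0.22 ± 0.18), Psmc4 in the base (-0.11 ± 0.07), Psmd5 in the assembly chaperones (-0.16 ± 0.09) and Psme2 in the activators (-0.16 ± 0.29), all SE and none called.

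The difference between the diet effects at day 28 and day 3 asks whether the falls at day 3 were specific to short feeding. It shares its arrays with both comparisons above. Limma called no subunit, where 1.38% of all genes tested were called, 0.708% downward and 0.673% upward. Of all 5793 genes tested, 1089 had an unadjusted p under 0.05, 525 of them upward. Among the 35 subunits there were 8, all with a less negative or positive effect at day 28. The values were 0.44 ± 0.13 for Psmd7 (limma adjusted p = 0.0655), 0.34 ± 0.10 for Psmd1 (0.0655), 0.33 ± 0.10 for Psmd2 (0.0818) and 0.39 ± 0.13 for Psme4 (0.105). Psmd14 had 0.05 ± 0.07 (0.774), with nearly equal diet effects at both days. Psmd7 was called without high fat day 3 replicate 2, low fat day 28 replicate 1 or high fat day 28 replicate 5 (adjusted p = 0.0401 to 0.0448), and Psmd1 without low fat day 28 replicate 1 or high fat day 28 replicate 6 (0.0428 and 0.0494). So the falls at day 3 were called and those at day 28 were not, but no subunit's diet effect was shown to differ between the days.

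Between days on the same diet, limma called no subunit on low fat, where 0.345% of all genes were called, and none on high fat, where 0.552% were. On low fat 2 of 35 subunits had an unadjusted p under 0.05, Psmd1 (-0.19 ± 0.07) and Psmd5 (0.21 ± 0.09), against 964 of 5793 genes tested. On high fat 834 of the 5793 genes passed that threshold, 456 of them higher at day 28. Among the 35 subunits there were 9, all higher at day 28, namely Psma7, Psmb2, Psmd1, Psmd2, Psmd3, Psmd4, Psmd7, Psme3 and Psme4. The largest of these was Psme3 with 0.31 ± 0.14, followed by Psme4 with 0.27 ± 0.09, Psmd7 with 0.26 ± 0.09, Psmb2 with 0.25 ± 0.10 and Psmd2 with 0.24 ± 0.07 (SE, smallest limma adjusted p = 0.129). For the subunits that fell at day 3, the high fat group at day 3 was thus the lowest of the 4 groups by its mean. The low fat group at day 3 was the highest of the 4 for all of them but Psmd4 and Psmd14. Which of these 2 groups departs from the others was not tested.

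Within groups the subunits varied together only in part. With each group's mean removed, the median correlation between 2 of the 35 subunits over the 24 arrays was 0.117, against 0.0164 between any 2 genes tested. It was 0.459 among the 4 alpha subunits, 0.266 among the 9 base subunits, 0.0996 among the 7 beta subunits and 0.065 among the 8 lid subunits. The arrays share a normalization, so these are descriptions. Psma7 (0.804), Psmd6 (0.78), Psmb6 (0.773) and Psmb4 (0.731) followed the mean of the other subunits most closely. Of the subunits that fell at day 3, Psmd2 (0.0932), Psmd14 (-0.0872), Psme4 (-0.182), Psmd3 (-0.221) and Psmd1 (-0.291) had correlations near or below 0 with that mean, Psmd11 had 0.14, and Psmd4 (0.408), Psmd7 (0.506) and Psmc2 (0.544) had higher ones.

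**Figure D3:**
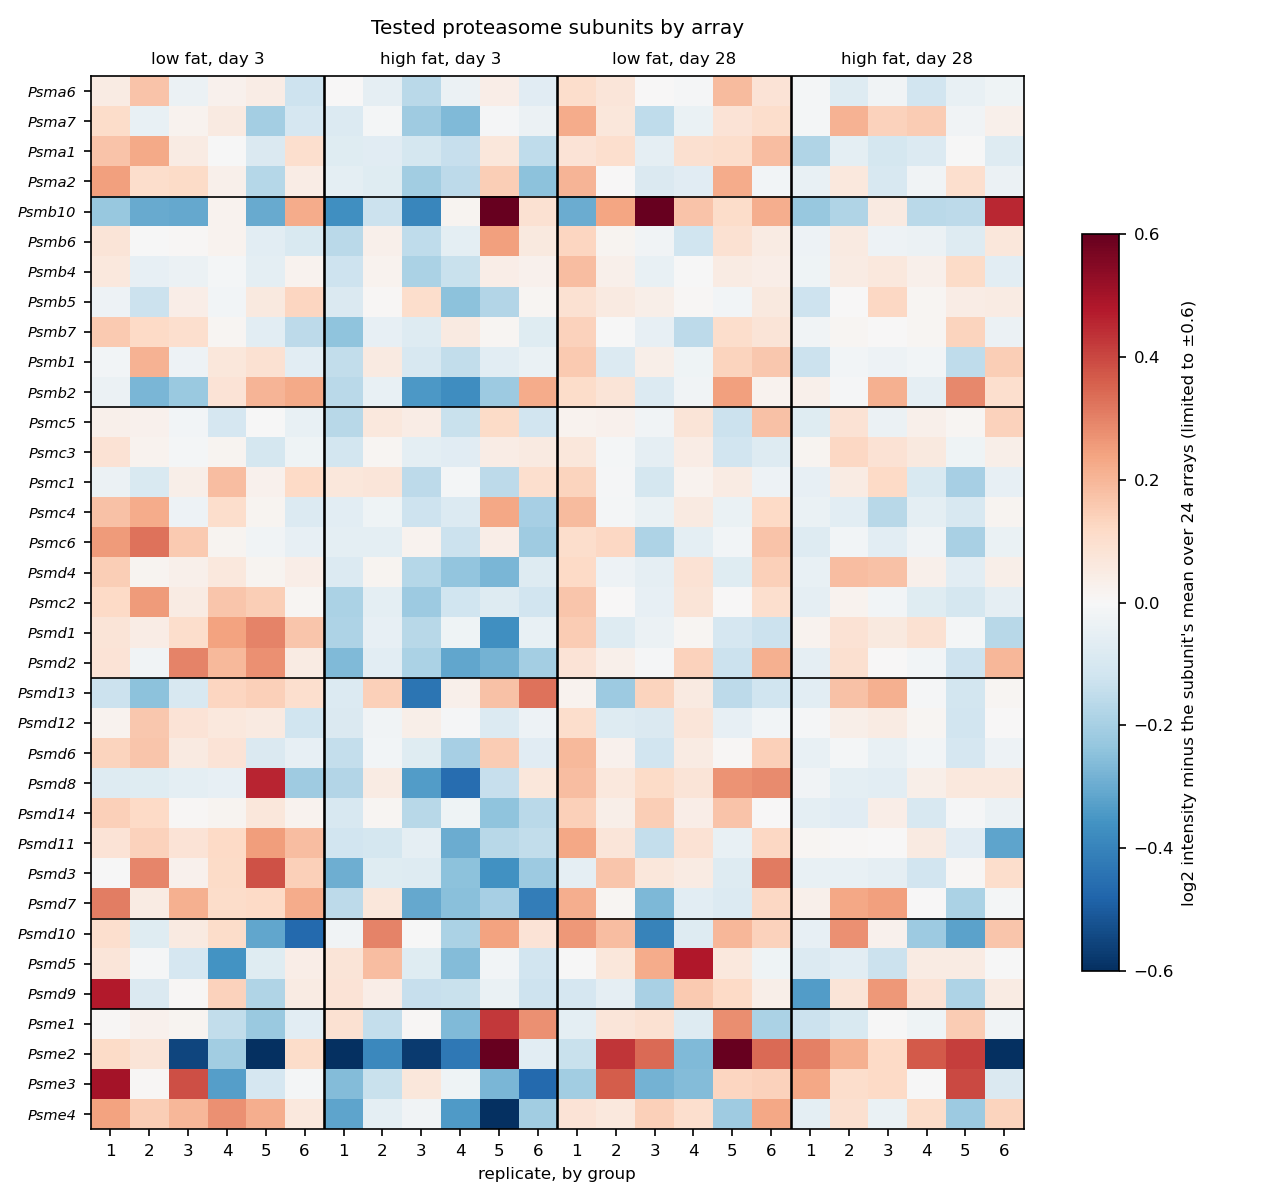
Log2 intensity of each tested subunit (rows, by part) on each of the 24 arrays (columns, by group), with the mean of the subunit removed and colours limited to 0.6 in either direction. Psmd2 is below its own mean (blue) in all 6 high fat day 3 columns, and replicate 5 of that group is above it (red) for Psmb10 and Psme2.

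The level of the slow fibre markers differed between the diets, and the regulatory particle was set beside it. The mean of the 17 base and lid subunits per mouse was 9.75 ± 0.03 on low fat and 9.57 ± 0.06 on high fat at day 3, and 9.71 ± 0.07 and 9.67 ± 0.05 at day 28 (SD, n = 6). The mean of the 11 core subunits was 9.46 ± 0.04 and 9.39 ± 0.10 at day 3, and 9.52 ± 0.05 and 9.46 ± 0.04 at day 28. The base and lid mean minus the core mean was 0.291 on low fat and 0.184 on high fat at day 3. At day 28 it was 0.19 and 0.209, so by this measure low fat day 3 was the highest group. At day 3 the highest base and lid mean on high fat, 9.67, was below the lowest on low fat, 9.70. The core means overlapped, from 9.41 to 9.51 on low fat and from 9.29 to 9.54 on high fat. The 9.54 was high fat day 3 replicate 5, the mouse with the high Ptprc level, and the next highest of its group was 9.44. The core mean includes the inducible Psmb10, which was also highest in that mouse (6.51). At day 28 the slow fibre marker mean also differed (5.29 ± 1.39 in low fat mice, 9.22 ± 0.40 in high fat mice), while the base and lid means overlapped. With the slow fibre marker mean as a covariate in the fit, none of the 35 subunits was called at day 3 and their median change was -0.032. The change was then -0.35 for Psme4 (limma adjusted p = 0.385), -0.33 for Psmd7 (0.425), -0.28 for Psmd3 (0.402) and for Psmd2 (0.375), and -0.05 for Psmc2 (0.839). The marker mean was at most 7.53 in every low fat mouse and at least 8.17 in every high fat mouse, so in this fit it cannot be told apart from the diet. With the mean of the adipocyte markers in the fit instead, 9 subunits were called lower. The share of all genes called in these covariate fits is not given here, so neither count is shown to be particular to the subunits.

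**Figure D4:**
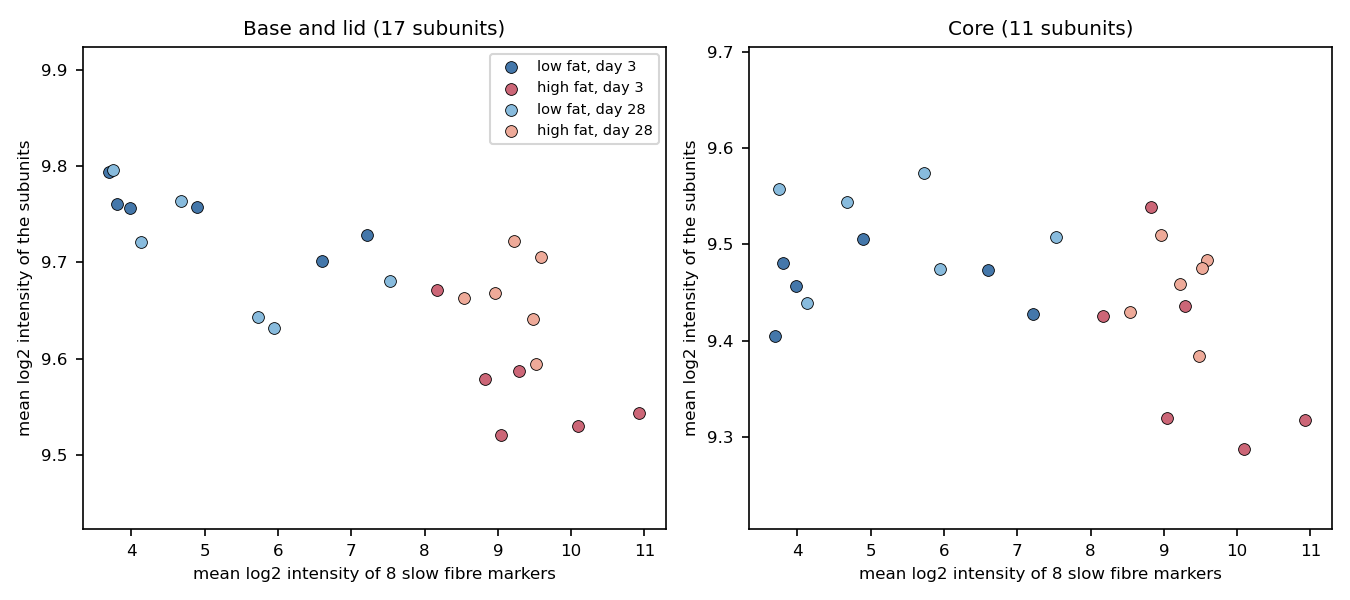
Mean log2 intensity of the 17 base and lid subunits (left) and of the 11 core subunits (right) against the mean of 8 slow fibre markers, 1 point per mouse, with both vertical axes spanning the same log2 distance. At day 3 the high fat mice lie at 9.52 to 9.67 in the left panel, below the low fat mice at 9.70 to 9.79, and at day 28 the diets differ along the horizontal axis and overlap along the vertical one.

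Some subunits replace others in immune cells or after interferon. Psmb10 is the inducible form of Psmb7 and belongs to the genes counted above, and Psmb8 and Psmb9, the inducible forms of Psmb5 and Psmb6, are given beside it. Psmb10 ran from 5.37 through 5.42 to 5.90 on low fat and from 5.29 through 5.63 to 6.51 on high fat at day 3. The 6.51 was high fat day 3 replicate 5, the mouse with the high Ptprc level. The same mouse had the highest value of the 24 for Psmb8 (5.40), for Psmb9 (3.75) and for Psme2 (5.55). The change of Psmb10 at day 3 was 0.16 ± 0.18 (limma adjusted p = 0.583), and -0.01 without that replicate. For Psme2 it was 0.12, and -0.18 without it, so the direction of both rests on 1 mouse. At day 28, Psmb8 ran from 4.30 through 4.71 to 4.90 on low fat and from 3.41 through 3.87 to 4.81 on high fat, where the 8 tested macrophage markers were also lower. Its change was -0.67 ± 0.25 (SE, limma adjusted p = 0.0776), called without high fat day 28 replicate 3 (0.0214) or high fat day 3 replicate 5 (0.0109). It was also called with array weights (limma adjusted p = 0.0204) and in a fit of only the arrays compared (0.0436). The part of leukocyte RNA in these values was not tested.

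**Figure D5:**
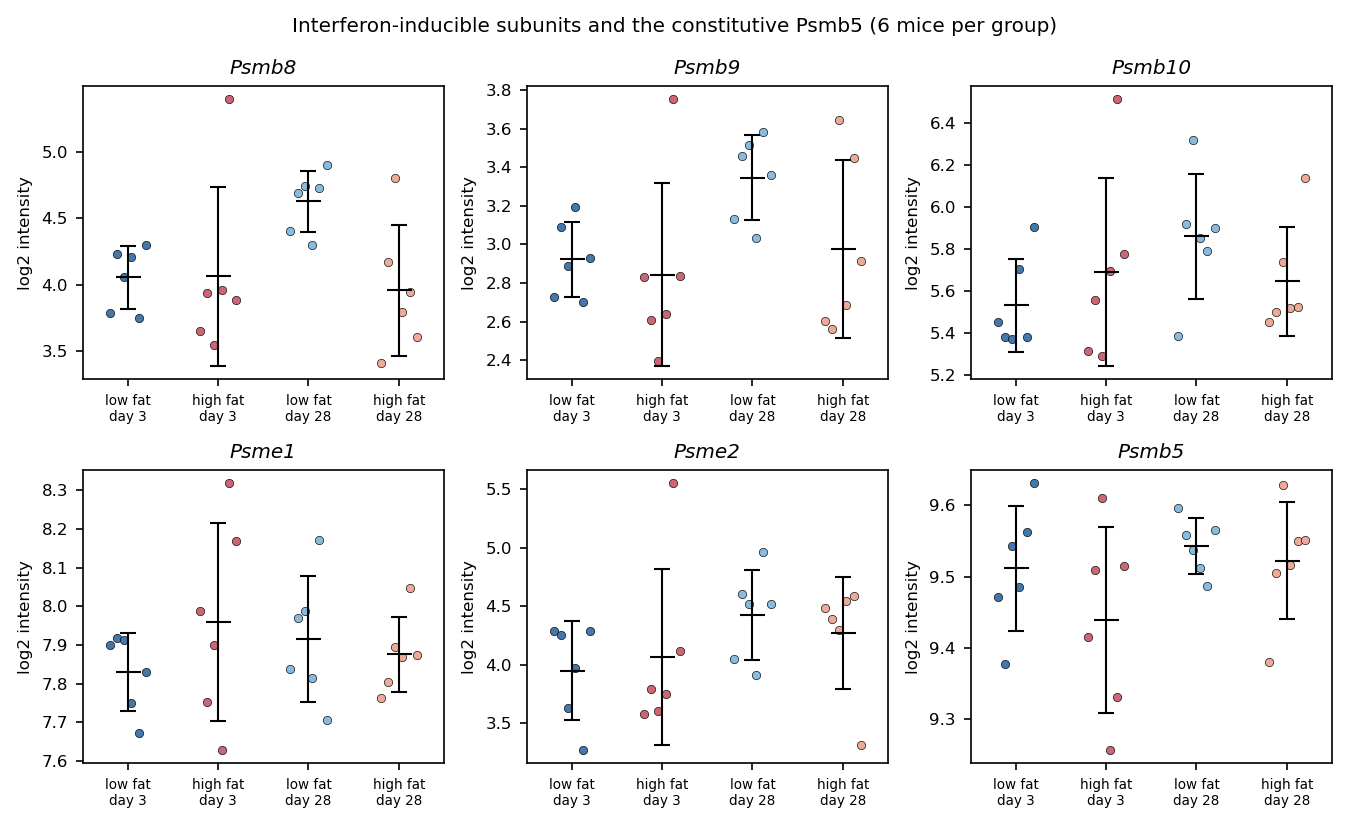
Log2 intensity of the inducible subunits Psmb8, Psmb9 and Psmb10, the inducible activator genes Psme1 and Psme2, and the constitutive Psmb5, with 1 point per mouse and the mean ± SD of each group of 6. High fat day 3 replicate 5 is the highest point of its panel for the first 5 genes, and Psmb5 spans 9.26 to 9.61 in that group.

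Other genes of the pathway, from a list of ubiquitin enzymes, shuttles, chaperones and regulators, gave 37 tested genes. At day 3, 7 of 37 were called lower and none higher, against 6.87% and 7.99% of all genes tested, with a median change of -0.116. With the slow fibre marker mean as a covariate none of these 7 was called (limma adjusted p = 0.196 for Keap1, 0.399 for Fbxo32, 0.412 for Ubqln1 and 0.734 for Ube2l3). The share of all genes called in that fit is not given here. Fbxo32, the muscle ubiquitin ligase atrogin-1, ran from 9.56 through 10.68 to 11.59 on low fat and from 7.17 through 9.28 to 9.46 on high fat, without overlap, and changed by -1.76 ± 0.36 (SE, limma adjusted p = 0.00201). Its fall was several times larger on the log2 scale than that of any subunit. Keap1, the adaptor that holds down the transcription factor Nfe2l2, ran from 7.01 through 7.44 to 7.60 on low fat and from 6.59 through 6.96 to 7.11 on high fat, with overlap, and changed by -0.52 ± 0.11 (adjusted p = 0.00329). Its means were 7.40 on low fat and 6.88 on high fat at day 3, and 7.02 and 6.99 at day 28. From day 3 to day 28 on low fat Keap1 changed by -0.37 ± 0.11 (SE, limma adjusted p = 0.118). Ubqln1, which shuttles tagged proteins to the proteasome, changed by -0.25 ± 0.07 (adjusted p = 0.0117), and Ube2l3, a ubiquitin-conjugating enzyme, by -0.20 ± 0.05 (0.00866). The call of Ubqln1 was lost without the 4 arrays of the highest beta-actin ratio (0.0633), and that of Ube2l3 in a fit of only the arrays compared (0.0636).

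The other 3 calls at day 3 were for Ecpas, a scaffold that holds core and cap together (-0.42 ± 0.12, adjusted p = 0.0269), and for Ubqln4 (-0.42 ± 0.13, adjusted p = 0.0329) and Nploc4 (-0.32 ± 0.11, adjusted p = 0.0432), a shuttle and a cofactor of the segregase that extracts tagged proteins. Ecpas lost its call without low fat day 3 replicate 1 or 6 (0.0518 and 0.0541). Ubqln4 lost it without any 1 of 7 arrays (high fat day 3 replicates 1, 5 and 6 and low fat day 3 replicates 1, 2, 3 and 5) and Nploc4 without any 1 of 10 (every day 3 array but high fat replicates 1 and 3). In a fit of only the arrays compared, Ecpas (0.0854), Ubqln4 (0.111) and Nploc4 (0.127) were not called. Nor were they without the 4 arrays of the highest beta-actin ratio (0.0532, 0.0833 and 0.11), where the change of Ecpas was -0.26. With no filter on dim genes Ubqln4 (0.0585) and Nploc4 (0.0783) lost their calls, and with array weights Nploc4 did (0.078). Nfe2l1, the activator of subunit genes, had a change of -0.05 ± 0.13 (adjusted p = 0.845), and Pomp, the assembly factor of the core, of 0.02 ± 0.05 (0.875). At day 28, 1 of 37 was lower, against 7.18% of all genes tested, and none was higher. This was Ubqln1, with -0.23 ± 0.07 (adjusted p = 0.0178). It was not called without low fat day 28 replicate 4 or 6 (0.0523 and 0.0507), nor with the adipocyte or the slow fibre marker mean as a covariate (0.547 with either). Fbxo32 had -0.07 ± 0.36 at day 28 (limma adjusted p = 0.927), and the difference of its diet effects between the days was not called (0.0798).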

How the data were processed

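Total RNA of 24 quadriceps muscles was hybridised to 1 Affymetrix array each. The deposited values are linear intensities, made by the authors with GCRMA per the submitters' processing notes. No source used here gives its version. Values ran from 0.881 to 20520, and the log2 array medians from 6.56 to 6.90. Log2 of the deposited intensity was taken with no offset. Probe sets with several symbols were not named, the brightest probe set of a gene was kept, and genes over 4 (log2) on at least 6 of 24 arrays were tested. Group means were fitted over all arrays with limma 3.58.1 in R 4.3.3 (lmFit, eBayes, 20 residual degrees of freedom, two-sided). The fit was tested on simulated data. Levels of different probes were compared only to keep the brightest probe set and to place genes as dim or bright on the scale. Members, lists and comparisons were chosen with earlier results of these data known. Named are subunits called in any comparison, the catalytic subunits, Psmd1, Psmd2 and Psmc2, the largest change of each part, subunits that failed the filter, and called or preset genes of the wider pathway. Of the preset genes, Trim63 and Ubb are not analysed here. Promoters were matched by gene number or symbol. Mice of the same replicate number were separate animals, and the number pairs nothing in the labels. Alternatives are listed in the closing section.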

Additional observations from a re-analysis of the deposited data

Results flagged for a closer look

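In 172 groups of 6 values (the named genes and the part means in each group), 18 had a highest or lowest mouse far from the other 5 by Dixon's test, which marks about 1 group in 20 by chance. High fat day 3 replicate 5 accounts for 7 of them. It was highest of its group for Psmb8 (5.395, next 3.96), Psmb9 (3.75, next 2.83), Psme2 (5.55, next 4.12) and the mean of the activators (7.49, next 7.15), and lowest for Fbxo32 (7.17, next 8.86), Nfe2l1 (8.06, next 8.83) and Nploc4 (6.70, next 7.30). It is the mouse with the high Ptprc and adipocyte marker levels given above, and the part of these in the values was not tested. The call of Nploc4 was lost without it (change -0.20, limma adjusted p = 0.0761), and Fbxo32 stayed called.

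High fat day 28 replicate 6 was lowest for Psmd11 (9.68, next 9.93), Psme2 (3.31, next 4.30) and the mean of the activators (7.06, next 7.32). Low fat day 3 replicate 5 was highest for Psmd8 (11.36, next 10.85) and for the mean of the lid (9.65, next 9.55). Low fat day 3 replicate 1, whose labels do not name the DNase step of the other arrays, was highest for Psmd4 (9.91, next 9.83), whose call at day 3 was lost without it. The remaining ones were Psmb7 in high fat day 28 replicate 5 (11.28, next 11.16), Psme4 in low fat day 28 replicate 5 (9.91, next 10.18), Ecpas in high fat day 3 replicate 4 (7.27, next 7.98), Psma8 in high fat day 28 replicate 3 (1.35, next 1.60) and the base mean in high fat day 3 replicate 2 (9.84, next 9.77).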

How the results depend on the processing

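The 9 falls at day 3 were recomputed with quantile normalization (10 called), no filter on dim genes (7), only the arrays compared (7), array weights (9, with Psma1 and Psma2 in place of Psmd4 and Psmd14), the replicate number as a block (9), the adipocyte marker mean as a covariate (9), and without the 4 arrays of the highest beta-actin ratio (8). Leaving out each array in turn gave 8 to 10, an alternative chosen after the data were seen except for low fat day 3 replicate 1, which was planned. With the slow fibre marker mean as a covariate, 0 were called, the median change at day 3 was -0.0316, and that at day 28 turned to 0.0419. The share of all genes called in each alternative is not given here. At day 28, 2 subunits were called lower with array weights, 1 with quantile normalization, and 0 to 1 without 1 array. The diet effects of 3 subunits (Psmd1, Psmd2 and Psmd7) differed between the days with array weights, and of 0 to 2 without 1 array. The replicate block changed no call of a subunit, and with it Ubqln4 (adjusted p = 0.0507) and Nploc4 (0.0529) were not called. With each group's mean removed, same-numbered mice correlated over the genes tested from -0.0512 to 0.237 at day 3 and from -0.0819 to 0.537 at day 28. Mice of different numbers were not compared, so these values do not decide on pairing. The numbers were not taken as pairs because the labels pair nothing by them. Psmd4 and Psmd14 were also lost with no filter, with only the arrays compared and with array weights. No named gene's call reversed. Arrays limit precision through their number, and dim genes through the background correction.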
